A study of Mus musculus with 899 samples.

Results

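Plasma miRNA levels were compared between C57Bl/6 and C3H mice before any treatment, using the 192 samples of the series' 899 that carry the time point PT. They were chosen by label alone: 96 samples of strain C57Bl/6, whose titles carry the code G1 or G3, and 96 of strain C3H, with the code G2 or G4. Each strain gave 48 females and 48 males, and 32 of its mice were later assigned to sham treatment and 64 to irradiation of the whole thorax, so no mouse had been irradiated when these samples were taken. Sham samples of the same strains, handled but given no radiation, served to check each difference: 16 per strain at day 2 (D2), 16 per strain at day 5 (D5) and 32 per strain at month 1 (M1). The animals were young adult gnotobiotic mice, the females older than the males by the study's methods. Blood was drawn from the retro-orbital sinus into EDTA. The strain C3H is the substrain C3Hf/Sed/Kam in the study's methods. Small RNA of cell-free plasma was sequenced, and each value is the number of reads of 1 mature miRNA in 1 sample.

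MicroRNAs are short RNAs that pair with messenger RNAs, mainly through bases 2 to 8 from their 5′ end (the seed), and lower the output of those messengers. In plasma they are carried in vesicles and protein complexes that protect them from degradation. Most plasma miRNA comes from blood cells and endothelium, so their levels follow cell turnover and cell damage during handling, while miRNAs that are concentrated in a solid organ are found at low levels. The 10 most abundant miRNAs here were miR-16-5p, miR-21a-5p, miR-486a-5p, miR-486b-5p, let-7c-5p, miR-148a-3p, miR-25-3p, miR-126a-3p, miR-93-5p and miR-125b-5p, which include well-known red blood cell (miR-16, miR-486) and endothelial (miR-126) forms. In bulk plasma, fewer cells releasing a miRNA and less miRNA released per cell cannot be told apart.

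The mature sequences below, from RefSeq (GRCm38.p6), belong to the miRNAs on which the results turn. The capitals mark the seed, bases 2 to 8. The first line is the miRNA with the largest PT difference among abundant miRNAs, and the next 2 are neighbours on chromosome 11 that were lower in C57Bl/6.
miR-342-3p: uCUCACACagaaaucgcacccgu
miR-216a-5p: uAAUCUCAgcuggcaacuguga
miR-217-5p: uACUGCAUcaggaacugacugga
The following 3 miRNAs kept their direction at all 4 time points and share no seed with another tested miRNA that had a RefSeq match.
miR-139-5p: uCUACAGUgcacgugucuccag
miR-184-3p: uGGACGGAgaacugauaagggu
miR-186-5p: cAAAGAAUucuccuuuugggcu
The let-7 seed was shared by 9 tested miRNAs, of which 7 were lower in C57Bl/6 at PT and 2 kept that call at all 4 time points. Of all 370 tested miRNAs, 29.7% were lower at PT, and 6.49% were called the same way, higher or lower, at all 4 time points.
let-7g-5p: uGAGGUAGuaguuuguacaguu
let-7d-5p: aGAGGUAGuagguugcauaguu
The miR-17 seed was shared by 6 tested miRNAs, 5 lower and 1 higher in C57Bl/6 at PT (29.7% and 28.1% of all 370). miR-20a-5p and miR-93-5p kept the call at all 4 time points, and miR-17-5p, whose PT difference was larger than theirs, did not.
miR-17-5p: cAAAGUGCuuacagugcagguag
miR-20a-5p: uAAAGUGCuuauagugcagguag
miR-93-5p: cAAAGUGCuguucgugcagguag

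Levels are given as log2 CPM, reads scaled to the effective library size, with a prior count of 2. A difference is C57Bl/6 minus C3H on the log2 scale with its standard error (SE), and a miRNA is called where the Benjamini-Hochberg adjusted p of edgeR's quasi-likelihood test over all 370 tested miRNAs is under 0.05. The 320 libraries held 405952 to 6992333 reads (median 1406381). At PT the median library of C57Bl/6 held 1235272 reads and that of C3H 1453366, and code G3 was the shallowest with a median of 789666.

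At PT, 214 of the 370 tested miRNAs (57.8%) were called, 104 higher (28.1%) and 110 lower (29.7%) in C57Bl/6, and 39 of the 214 differed by more than 2-fold. The sham samples, from fewer mice, gave 108 calls at D2 (29.2%), 143 at D5 (38.6%) and 111 at M1 (30%). The split between higher and lower calls was 54 and 54 at D2 and 63 and 80 at D5, against 40 and 65, and 52 and 115, after the quantile normalization that the study used. Only part of the PT differences was found again. Of the 214, 42 were called in the same direction at D2 and 24 in the opposite direction. At D5 the numbers were 45 and 45, and at M1 they were 68 and 12. The difference itself changed between PT and M1 sham samples in 110 miRNAs (29.7%). The sham samples came from mice that had also given a PT sample, so the check was repeated with the PT samples of mice assigned to irradiation, which share no animal with the sham samples. Of the 168 miRNAs called in these (45.4%), 38 (22.6%) were called the same way in sham samples at D2, 41 (24.4%) at D5 and 57 (33.9%) at M1, and 16, 34 and 9 the opposite way. Among all tested miRNAs, the share called in 1 direction was 14.6% for each direction at D2, 17% higher and 21.6% lower at D5, and 14.9% higher and 15.1% lower at M1. Across the 370 miRNAs, Pearson's r between the 2 sets of differences was 0.24 at D2, 0.04 at D5 and 0.43 at M1, which describes these miRNAs and is no test, since miRNAs of 1 library are not independent.

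**Figure D1:**
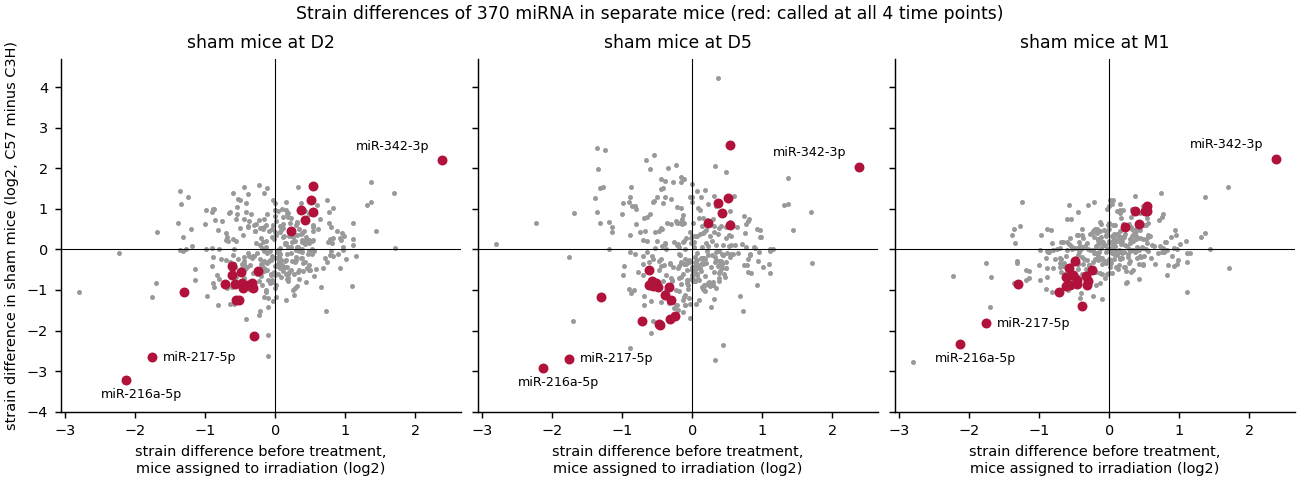
Strain difference (log2, C57Bl/6 minus C3H) of 370 miRNAs before treatment in mice assigned to irradiation (horizontal axis) against that in sham mice at D2, D5 and M1 (vertical axes). Red points are the 24 miRNAs called the same way at all 4 time points, and among these miR-342-3p, miR-216a-5p and miR-217-5p lie farthest from 0 on the horizontal axis.

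Title codes of the same strain differed from each other too. At PT, code G3 differed from G1, both C57Bl/6, in 153 miRNAs (41.4%), and G4 from G2, both C3H, in 243 miRNAs (65.7%). The labels show that G1 and G2 were followed beyond M1 and G3 and G4 were not, and they do not say what else sets the codes apart. The strain difference itself was 224 called miRNAs for G1 against G2 (60.5%) and 177 for G3 against G4 (47.8%), and for 197 miRNAs (53.2%) it differed between these pairs in a test of the interaction. Of the 214, 82 were called the same way in both pairs, while 44 of all tested miRNAs were called in opposite ways. Since every code belongs to 1 strain, strain and code can be told apart only by asking whether both codes of a strain move together. Females and males differed in fewer miRNAs: 61 within C57Bl/6 (16.5%) and 75 within C3H (20.3%). The strain difference differed between the sexes in 69 (18.6%). Since the females were also older than the males, sex and age cannot be told apart in these comparisons. Each combination of code, sex and time point was also taken as a block in limma-voom, with 1 correlation (0.247) between samples within every set. This called 57 miRNAs at PT (15.4%), 63 at D2 (17%), 82 at D5 (22.2%) and 40 at M1 (10.8%). The block takes females and males of 1 code as separate sets, so a code difference shared by both sexes is not accounted for.

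**Figure D2:**
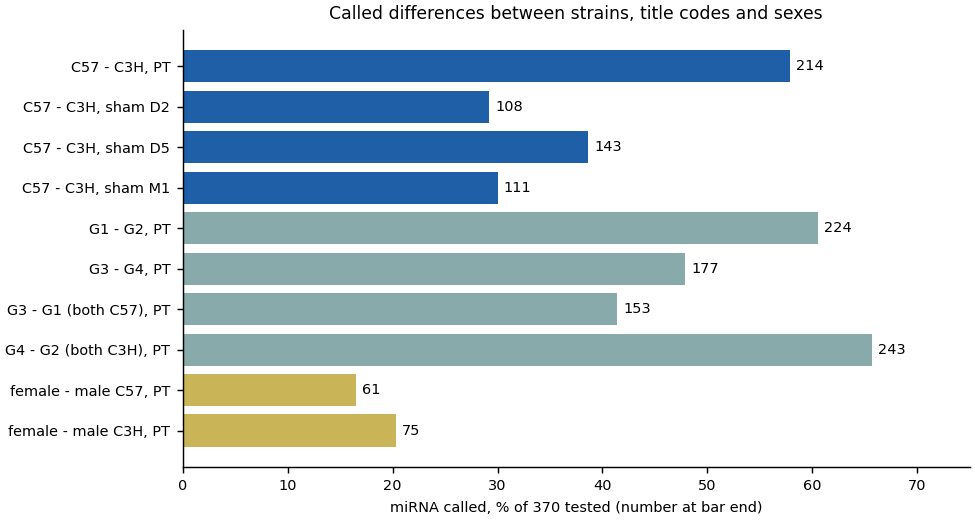
Percentage of the 370 tested miRNAs called in each comparison, with the number called at the end of each bar. The comparison of G4 with G2, 2 sets of the same strain, gave 243 calls, more than the 214 of the strain comparison at PT.

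A hemolysis index (log2 miR-451a minus log2 miR-23a-3p, which rises as red blood cells lyse) moved with strain and code. Its mean at PT was 0.10 ± 0.81 (SD, n = 96) in C57Bl/6 and 0.77 ± 1.22 (SD, n = 96) in C3H, a difference of -0.67 (two-sided permutation test, p = 4e-05, adjusted over 3 library measures 0.00012). The test exchanges single mice and takes no account of title code. The strain difference lay in 1 pair of codes: G2 had a mean of 1.74 against 0.20 in G1, while G4 had -0.20, below G3. With the index as a covariate, 197 miRNAs were called at PT, 181 of them among the 214. At M1 it left 62 of the 111 called, and of the 24 miRNAs called the same way at all 4 time points 19 remained so. Library size differed between strains by -0.38 on the log2 scale (p = 0.0002, adjusted 0.0003) without regard to code, but its direction turned between the pairs, with medians of 1622474 in G1 and 1274625 in G2 against 789666 in G3 and 1729580 in G4. In the same test the number of miRNAs detected did not pass the test (416 ± 44.1 against 425 ± 51.0, SD, adjusted p = 0.182, all by permutation test).

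Called in the same direction at PT, D2, D5 and M1 were 24 miRNAs (6.49% of the 370), 7 higher and 17 lower in C57Bl/6. Under the block for code, sex and time point 6 of them remained called at all 4 time points: miR-342-3p, miR-139-5p and miR-184-3p, higher in C57Bl/6, and miR-216a-5p, miR-186-5p and let-7g-5p, lower. In 5 miRNAs the means of the 4 code and sex sets of C57Bl/6 lay all above or all below those of C3H at every time point: miR-342-3p, miR-139-5p, miR-223-5p, miR-216a-5p and miR-217-5p. By comparison, 15.9% of the 370 miRNAs had sets that did not overlap at PT alone, 15.1% at D2, 25.7% at D5 and 11.6% at M1.

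**Figure D3:**
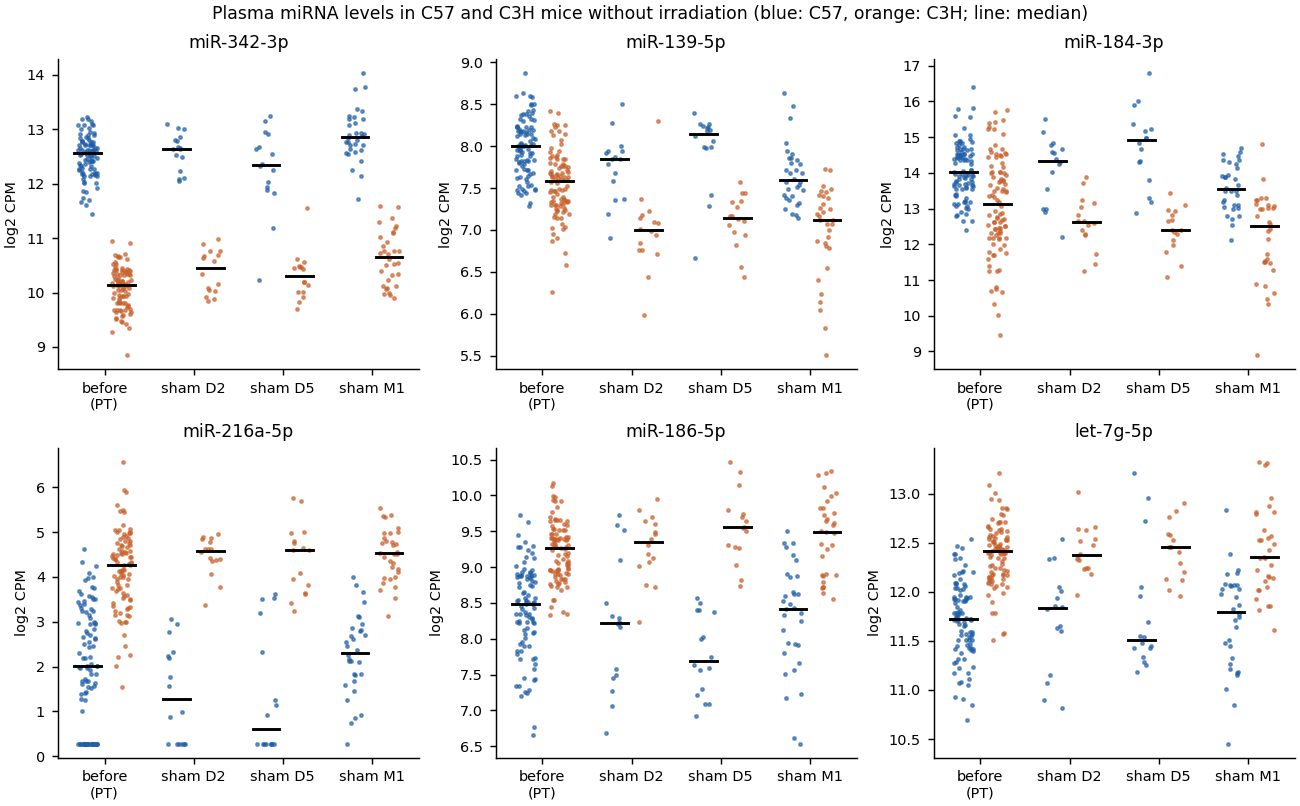
Level (log2 CPM) of the 6 miRNAs called at all 4 time points with the block for code, sex and time point, 1 point per sample, C57Bl/6 in blue and C3H in orange, with a line at each group's median. miR-342-3p was the sole miRNA whose PT samples did not overlap between strains, and samples of miR-216a-5p at 0.28 held no read.

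miR-342-3p, which lies in an intron of the actin regulator gene Evl on the same strand (chr12:108658680-108658702, GRCm38.p6) and is known from lymphoid cells, was 5.37-fold higher in C57Bl/6 at PT. Its level ran from 11.45 to 13.23 (median 12.56) in the 96 C57Bl/6 samples and from 8.85 to 10.95 (median 10.13) in the 96 C3H samples. The groups did not overlap, which held for no other tested miRNA at PT (1 of 370, 0.27%), while 2 (0.541%), 6 (1.62%) and 1 (0.27%) were without overlap at D2, D5 and M1. The difference was 2.43 (SE 0.07, edgeR quasi-likelihood test, Benjamini-Hochberg adjusted p = 1.6e-116). The medians of the 4 code and sex sets lay between 12.27 and 12.72 in C57Bl/6 and between 9.85 and 10.39 in C3H. It was larger in females (2.66) than in males (2.13), and the interaction with sex was called (0.53, SE 0.11, edgeR adjusted p = 4.58e-05). It was also smaller for G3 against G4 than for G1 against G2, by -0.47 (SE 0.10).

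In sham mice the levels of miR-342-3p at D2 ran from 12.06 to 13.09 (median 12.64) in C57Bl/6 and from 9.85 to 10.98 (median 10.46) in C3H, again without overlap. At D5 they ran from 10.23 to 13.24 (median 12.34) in C57Bl/6 and from 9.69 to 11.55 (median 10.31) in C3H. These groups overlapped, through 2 low samples of C57Bl/6 females of code G3 and 1 high C3H sample. At M1 the range was 11.72 to 14.03 (median 12.86) in C57Bl/6 and 9.91 to 11.59 (median 10.66) in C3H, without overlap. The differences were 2.2 (SE 0.16) at D2, 2.04 (SE 0.16) at D5 and 2.24 (SE 0.11) at M1, all called, with edgeR adjusted p of 2.85e-32, 9.79e-29 and 3.76e-56. Of the 128 sham samples, 121 (94.5%) fell on their own strain's side of the midpoint between the PT means. These are not independent samples: each sham mouse gave a D2 or D5 sample and an M1 sample, and its PT sample is in the PT means. The median PT sample held 6974 reads of miR-342-3p in C57Bl/6 and 1482 in C3H.

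miR-216a-5p and miR-217-5p, both concentrated in the acinar cells of the pancreas, were lower in C57Bl/6. They lie within 10000 bases of each other in an intron of the long noncoding RNA gene Gm12082 on chromosome 11 (chr11:28757018-28757039 and chr11:28763761-28763783, GRCm38.p6, plus strand). Both are near the detection limit, with a median of 3.5 reads of miR-216a-5p per C57Bl/6 sample and 22 per C3H sample at PT. It had no read in 25 of the 96 C57Bl/6 samples and at least 1 in every C3H sample. A sample with no read of miR-216a-5p takes a level of 0.28.

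The level of miR-216a-5p at PT ran from 0.28 to 4.61 (median 2.02) in C57Bl/6 and from 1.55 to 6.57 (median 4.27) in C3H, so the groups overlapped. miR-216a-5p was 4.24-fold higher in C3H, a difference of -2.08 (SE 0.18, edgeR adjusted p = 6.82e-25). At D2 the range was 0.28 to 3.05 (median 1.28) in C57Bl/6 and 3.37 to 4.95 (median 4.58) in C3H, which did not overlap. At D5 it was 0.28 to 3.63 (median 0.60) against 3.24 to 5.77 (median 4.60), and at M1 0.28 to 4.01 (median 2.31) against 3.14 to 5.53 (median 4.53), both with overlap. The differences were -3.21 (SE 0.46), -2.92 (SE 0.47) and -2.33 (SE 0.30) at D2, D5 and M1, with edgeR adjusted p of 1.63e-09, 2.57e-08 and 1.58e-11. Of the 128 sham samples, 118 (92.2%) lay on their own strain's side of the PT midpoint, with the limit given for miR-342-3p.

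miR-217-5p had no read in 59 of the 96 C57Bl/6 samples and in 21 of the 96 C3H samples at PT. Its level ran from 0.28 to 3.34 (median 0.28) in C57Bl/6 and from 0.28 to 4.45 (median 2.01) in C3H. The differences were -1.64 (SE 0.26), -2.66 (SE 0.63), -2.70 (SE 0.71) and -1.82 (SE 0.42) at PT, D2, D5 and M1, all called. With the block for code, sex and time point the call at PT was lost (adjusted p = 0.06 in limma-voom), as was that at D5 (0.088).

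Of the other miRNAs of the pancreas list, the islet miRNA miR-375-3p was not called at PT (0.07, SE 0.08) and was lower in C57Bl/6 in sham mice (-0.61 at D2, -0.79 at D5, -0.57 at M1). miR-7a-5p, known from islet cells and neurons, was lower at all 4 time points (-0.46, -0.84, -1.85 and -0.86). In all, 3 of 6 tested members were lower at PT, 5 at D2, 4 at D5 and 5 at M1, and none was higher at any time point, where 29.7%, 14.6%, 21.6% and 15.1% of all 370 were lower. With the block for code, sex and time point 1 member stayed called at PT, near the share of 15.4% called over all 370. The list's median difference was -0.34 at PT, where it was 0.03 over all 370 miRNAs.

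let-7g-5p, a member of the let-7 family that restrains proliferation, is encoded in an intron of Wdr82 (chr9:106178846-106178867, GRCm38.p6). At PT it ran from 10.69 to 12.54 (median 11.73) in C57Bl/6 and from 11.51 to 13.21 (median 12.42) in C3H, with overlap, and the difference was -0.66 (SE 0.06, edgeR adjusted p = 2.36e-23). It was much the same in size in sham mice: -0.64 (SE 0.14), -0.51 (SE 0.14) and -0.69 (SE 0.10). let-7d-5p was lower as well (-0.60, -1.24, -0.83 and -0.64 at PT, D2, D5 and M1). The opposite arm of its precursor, let-7d-3p, was not: 0.02 (SE 0.05) at PT and 0.42, 0.32 and 0.66, all called as higher, in sham mice. Reads of near-identical let-7 members can be assigned to the wrong member by short-read counting.

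The rest of the let-7 family did not hold. At PT 9 of the 16 tested arms of the family were lower and none higher, with a median of -0.41, where 29.7% of all 370 were lower. With the block for code, sex and time point 4 stayed called at PT, beside 15.4% called over all 370. At D2 4 were higher and 2 lower, at D5 7 were higher and 3 lower (median 0.57), and at M1 1 was higher and 2 lower. Over all 370, 14.6% went each way at D2, 17% were higher and 21.6% lower at D5, and 14.9% and 15.1% at M1. The counts of lower arms at these times were near the background. For D5, limma-voom on the scaling of the main fit gave 5 higher and 4 lower (median 0.24). With limma on quantile-normalized log2 RPM the numbers were 4 and 5 (median 0.21). let-7i-5p moved from -0.92 (SE 0.11) at PT to 1.06 (SE 0.28) at D5 and -0.06 (SE 0.19) at M1. let-7c-5p moved from -0.85 (SE 0.12) at PT to 0.99 and 1.55 at D2 and D5 and -0.06 at M1, and the code G2 (set medians 15.47 and 16.07) lay above all sets of C57Bl/6 (13.78 to 14.48) at PT and G4 (13.64 and 13.54) below them.

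miR-186-5p, in an intron of Zranb2 (chr3:157544285-157544306, GRCm38.p6), was lower in C57Bl/6. At PT it ran from 6.65 to 9.72 (median 8.48) in C57Bl/6 and from 8.33 to 10.18 (median 9.27) in C3H. The differences were -0.76 (SE 0.08), -0.86 (SE 0.20), -1.76 (SE 0.21) and -1.05 (SE 0.14) at PT, D2, D5 and M1, with edgeR adjusted p between 3.43e-14 (D5) and 0.000303 (D2) in sham mice. The groups overlapped at PT, D2 and M1 and not at D5, where C57Bl/6 reached 8.57 and C3H began at 8.74.

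miR-139-5p, from an intron of the phosphodiesterase gene Pde2a (chr7:101475382-101475403, GRCm38.p6), was higher in C57Bl/6 by a smaller step. At PT it ran from 7.29 to 8.87 (median 8.0) in C57Bl/6 and from 6.27 to 8.42 (median 7.58) in C3H. The differences were 0.43 (SE 0.06), 0.73 (SE 0.14), 0.89 (SE 0.14) and 0.64 (SE 0.10) at PT, D2, D5 and M1. Its other arm, miR-139-3p, was called at PT (0.39) and M1 (0.58) in the same direction.

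miR-184-3p, abundant in the epithelium of cornea and lens, varied widely between mice. At PT it ran from 12.40 to 16.39 (median 14.03) in C57Bl/6 and from 9.46 to 15.75 (median 13.13) in C3H. The differences were 0.60 (SE 0.14), 1.57 (SE 0.36), 2.58 (SE 0.37) and 1.08 (SE 0.25) at PT, D2, D5 and M1. Among G1 and G2 males the PT difference was 0.06, and without code G4 the PT difference fell to -0.01 and was lost.

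Among red blood cell miRNAs, miR-144-3p and miR-451a, made together in the last steps of red cell development from 1 locus on chromosome 11, were lower in C57Bl/6 at all 4 time points. miR-144-3p ran from 6.26 to 9.62 (median 7.82) in C57Bl/6 and from 6.77 to 10.91 (median 9.18) in C3H at PT, a difference of -1.38 (SE 0.12, edgeR adjusted p = 1.9e-25), and was -1.04, -1.19 and -0.86 at D2, D5 and M1. miR-451a was -0.52 (SE 0.12) at PT and -0.87, -1.11 and -1.40 in sham mice. Its PT direction turned with G3 and G4 alone (0.07) and without G2 (0.18), neither called. For miR-451a the groups overlapped at every time point, and the PT difference was -1.02 in females and -0.04 in males, with a called interaction (-0.98, SE 0.22, edgeR adjusted p = 0.000241). Of the 15 tested members of the red blood cell list, 1 was higher and 9 lower at PT (median -0.31), 1 and 2 at D2, none and 10 at D5 (median -0.77), and none and 8 at M1 (median -0.56). Over all 370, 29.7%, 14.6%, 21.6% and 15.1% were lower at these times, so the D2 count was near the background. With the block for code, sex and time point 3 members stayed called at PT, beside 15.4% called over all 370. The hemolysis index was lower in C57Bl/6 at every time point (group medians 0.12 against 0.96 at PT, -0.25 against 0.46 at D2, -0.39 against 0.48 at D5 and -1.08 against 0.67 at M1). Since the index is made from miR-451a, the fit with the index as a covariate was not read for that miRNA. That fit covered the other members of the list, whose values in it are not given here. The cause of these differences was not tested.

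Lower at all 4 time points were also 3 miRNAs of the miR-17 and miR-106b clusters, whose members promote cell proliferation: miR-20a-5p (-0.31, -0.95, -1.72, -0.88), miR-19a-3p (-0.43, -0.95, -1.87, -0.75) and miR-93-5p (-0.23, -0.54, -1.65, -0.49). None of these 3 was called at PT with the block for code, sex and time point (limma-voom adjusted p = 0.36, 0.27 and 0.64), and without code G4 miR-20a-5p was 0.18, called in the opposite direction. For miR-93-5p, G1 lay above G2 and G3 below G4, with set differences of 0.40 and 0.77 for the first pair (females, males) and -0.78 and -1.08 for the second. Of the 19 tested arms of these clusters, 3 were higher and 8 lower at PT (median -0.02), 1 and 5 at D2, 3 and 11 at D5 (median -0.80) and none and 11 at M1 (median -0.46), beside 29.7%, 14.6%, 21.6% and 15.1% lower over all 370. With the block for code, sex and time point 3 stayed called at PT, near the share of 15.4% called over all 370.

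Another 6 miRNAs were lower at all 4 time points, with differences between -0.28 (miR-301a-3p at M1) and -2.14 (miR-802-5p at D2). They were miR-222-3p (-0.67 at PT), which curbs the growth factor receptor Kit, miR-146b-5p (-0.51), a brake on inflammatory signalling, miR-301a-3p (-0.49), miR-365-3p (-0.32), miR-378a-5p (-0.62) and the liver miRNA miR-802-5p (-0.63). miR-221-3p, encoded beside miR-222-3p and with the same seed, was higher in C57Bl/6 at PT (0.50, SE 0.06) and not called in sham mice. Of these 6, miR-222-3p and miR-301a-3p stayed called at PT with the block for code, sex and time point.

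The other miRNAs higher in C57Bl/6 throughout were miR-126a-3p (0.25, 0.45, 0.66, 0.55), the main endothelial miRNA, miR-223-5p (0.57, 0.92, 0.59, 0.96), miR-431-5p (0.48, 1.22, 1.28, 0.96) and miR-1934-5p (0.36, 0.97, 1.15, 0.95). None of these 4 was called at PT with the block for code, sex and time point (limma-voom adjusted p = 0.36, 0.066, 0.50 and 0.61). The levels of miR-431-5p and miR-1934-5p were low, with midpoints between the PT strain means of 3.55 and 2.78 log2 CPM. The other arm of the latter, miR-1934-3p, was lower in C57Bl/6 at PT (-0.50, SE 0.20) and not called in sham mice. miR-223-5p is the minor arm of the neutrophil and platelet miRNA miR-223. The major arm, miR-223-3p, was lower in C57Bl/6 at PT (-0.60, SE 0.10) and higher at D2, D5 and M1 (1.05, 2.33 and 0.75), so that the arms of this precursor moved in opposite directions at PT. By code and sex, miR-223-3p was lower in G1 than in G2 (-1.15 in females, -1.22 in males) and higher in G3 than in G4 (0.24 and 0.46). The arms of miR-126a were both higher at PT (miR-126a-5p 0.43). The difference of miR-126a-3p was 0.54 in females and -0.06 in males, with a called interaction (0.60, SE 0.11).

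The largest PT differences were next taken from the abundant miRNAs. Those with an average of at least 5 log2 CPM that went the same way in all 4 comparisons of code and sex numbered 65. The 12 lowest of these in C57Bl/6 were miR-17-5p (-1.86), miR-151-5p (-1.50), miR-144-3p (-1.38), miR-18a-5p (-1.34), miR-200c-3p (-1.32), miR-669c-5p (-1.18), miR-106b-5p (-1.08), miR-140-5p (-1.08), miR-486a-3p (-0.93), let-7i-5p (-0.92), miR-142a-3p (-0.89) and miR-296-5p (-0.79). The 12 highest were miR-342-3p (2.43), miR-181a-5p (1.43), miR-132-3p (1.42), miR-322-3p (1.24), miR-99a-5p (1.04), miR-200a-3p (1.02), miR-29a-3p (0.98), miR-10b-5p (0.95), miR-455-5p (0.93), miR-340-5p (0.91), miR-10a-5p (0.90) and miR-1839-5p (0.87). Of these 24, 11 were called the same way in at least 1 group of sham samples: 5 at D2, 5 at D5 and 8 at M1, while 2, 6 and 1 were called the opposite way. Over all 370, 14.6% were called in each direction at D2, 17% higher and 21.6% lower at D5, and 14.9% and 15.1% at M1. The D5 count was thus near the background. Only miR-144-3p and miR-342-3p of these 24 were called the same way at all 4 time points.

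miR-17-5p, founder of the proliferation-linked miR-17 cluster, ran from 7.59 to 9.97 (median 8.61) in C57Bl/6 and from 8.05 to 12.89 (median 9.89) in C3H at PT, a difference of -1.86 (SE 0.12, edgeR adjusted p = 2.1e-38). Its C3H sets of code G2 had medians of 11.20 and 11.01, while those of G4 (9.28 and 8.99) lay near the C57Bl/6 sets (8.23 to 8.99). In sham mice it was 0.44 (SE 0.29) at D2, 0.91 (SE 0.29) at D5 and -0.67 (SE 0.20) at M1. Reads of miR-17-5p cannot be fully separated from those of the near-identical miR-106a-5p, nor those of miR-18a-5p from miR-18b-5p.

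miR-140-5p, a cartilage miRNA, moved from -1.08 (SE 0.09) at PT to 0.98 (SE 0.22) at D2, 1.15 (SE 0.22) at D5 and -0.01 (SE 0.16) at M1. miR-151-5p moved from -1.50 (SE 0.12) to 1.51 (SE 0.30) at D5, and miR-200c-3p, an epithelial miRNA that guards against mesenchymal change, from -1.32 (SE 0.16) to 0.94 (SE 0.40). In these 3 the call at D5 was in the opposite direction to that at PT. miR-200c-3p was near 0 for G3 against G4 (-0.10 in females and -0.02 in males), and its PT difference was in G1 against G2 (-1.29 and -2.20).

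miR-21a-5p and miR-29a-3p were higher in C57Bl/6 at PT in every code and sex, and their differences were smaller in the later samples. miR-21a-5p, an abundant miRNA induced in injury and fibrosis, ran from 14.69 to 16.49 (median 15.68) in C57Bl/6 and from 13.74 to 15.32 (median 14.84) in C3H, a 1.80-fold difference (0.85, SE 0.05, edgeR adjusted p = 1.75e-41). The 4 comparisons of code and sex gave 0.72, 0.91, 0.84 and 0.89. In sham mice it was 0.30 (SE 0.13) at D2, -0.14 (SE 0.13) at D5 and -0.01 (SE 0.09) at M1, none of them called. miR-29a-3p, which represses collagen messengers, ran from 10.48 to 11.97 (median 11.15) in C57Bl/6 and from 9.29 to 11.06 (median 10.16) in C3H, a difference of 0.98 (SE 0.05). It was 0.42 (SE 0.13) at D2, -0.06 (SE 0.13) at D5 and 0.35 (SE 0.09) at M1, called at D2 and M1.

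miR-181a-5p, which tunes antigen receptor signalling in T cells, ran from 7.13 to 10.57 (median 8.80) in C57Bl/6 and from 5.92 to 8.91 (median 7.52) in C3H at PT. Its difference of 1.43 (SE 0.11) was 2.99 in G3 against G4 males and 0.51 to 1.36 in the other sets, and it was 0.46, 0.47 and 0.02 in sham mice, none called. The neuronal activity-induced miR-132-3p had the same set in front (3.01, the others 0.46 to 1.28) and was also higher in sham mice at D2 (1.09) and D5 (1.09). miR-484 was not among the 24 named by the rule and was picked after its values were seen: its 24 G3 male samples had a median of 8.60, while the medians of the other 7 sets lay between 4.46 and 6.02. Its PT difference of 1.68 (SE 0.16) was 0.24 (SE 0.11, edgeR adjusted p = 0.057) without the G3 males, an alternative chosen after seeing the data. Without them miR-181a-5p was 0.98 (SE 0.10) and miR-132-3p 0.83 (SE 0.09).

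**Figure D4:**
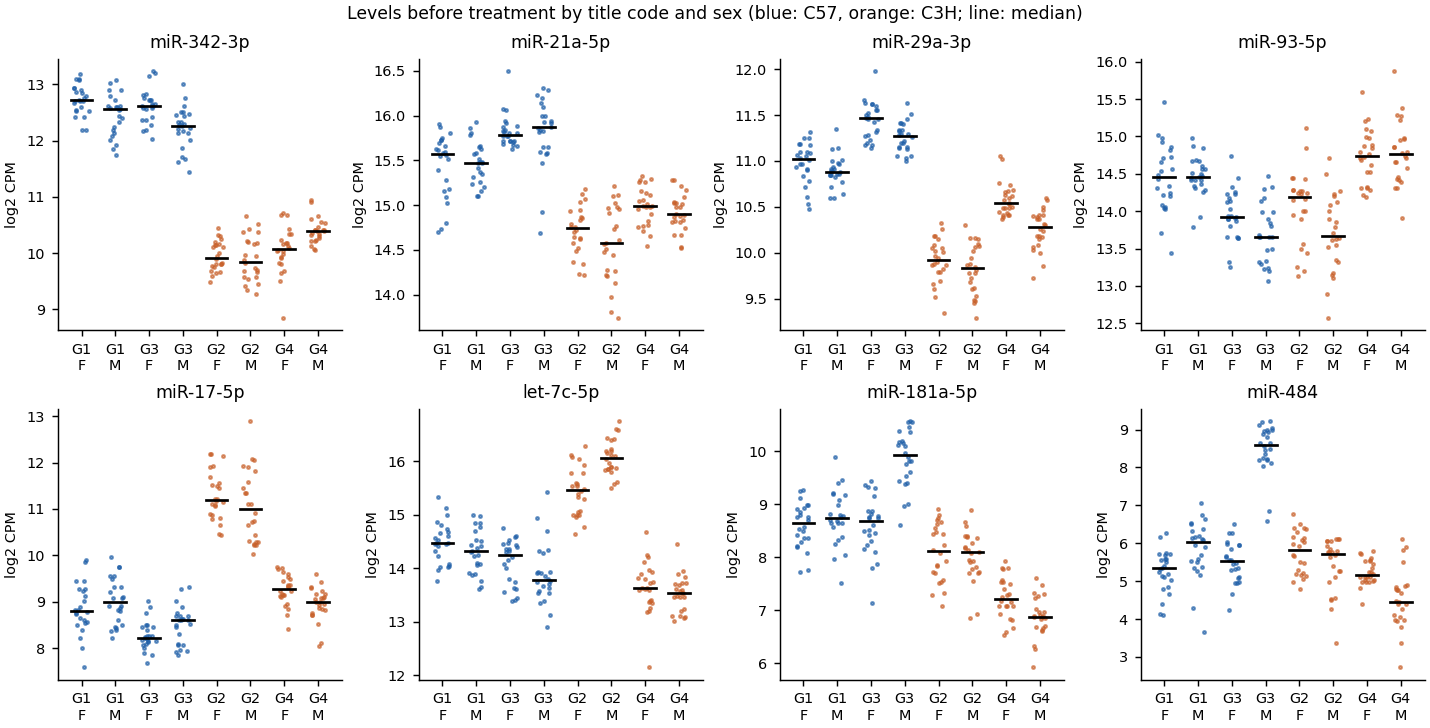
Level (log2 CPM) before treatment by title code and sex, 1 point per sample, C57Bl/6 in blue (G1, G3) and C3H in orange (G2, G4), with a line at each set's median. All sets of miR-342-3p, miR-21a-5p and miR-29a-3p separated by strain, whereas for miR-17-5p and let-7c-5p the C3H code G2 stood above G4, and for miR-484 the G3 males stood above every other set.

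Near the detection limit, the 3 lowest called miRNAs at PT were miR-582-5p (-2.96), miR-216a-5p (-2.08) and miR-505-5p (-2.03). The 3 highest were miR-323-3p (1.48), miR-92b-3p (1.59) and miR-511-5p (1.80). miR-511-5p, a macrophage miRNA encoded in the mannose receptor gene, was also higher at D2 (1.40) and M1 (1.54) and was not called at D5 (0.93, SE 0.41, edgeR adjusted p = 0.056). miR-92b-3p was higher at D2 (1.66) and D5 (1.76), and miR-582-5p was lower at M1 (-2.77). miR-505-5p was called at PT only.

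Of the 10 most abundant miRNAs, miR-16-5p (-0.13, SE 0.07) and miR-125b-5p (0.08, SE 0.07) were not called at PT. miR-126a-3p and miR-93-5p are given above, as are let-7c-5p and miR-21a-5p. miR-148a-3p changed from -0.61 (SE 0.14) at PT to 0.91 at D2 and 2.21 at D5. miR-25-3p was -0.33 (SE 0.07) at PT and -1.33 at D5, but 0.31 with G1 and G2 alone, called in the opposite direction at PT (edgeR adjusted p = 0.00109). miR-486a-5p and miR-486b-5p, whose near-identical sequences share reads, were both -0.31 (SE 0.09) at PT and 0.073 without G2.

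Among groups of miRNA fixed by tissue or gene cluster, imprinted miRNAs of the Dlk1-Dio3 cluster, expressed mainly from the maternal chromosome in brain, muscle and stromal cells, had medians above 0. At PT 10 of 27 were higher and 4 lower (28.1% and 29.7% of all 370), a median of 0.22 beside 0.03 over all 370. At D2 7 were higher, at D5 4 and at M1 12, none was lower at these times, and the medians were 0.57, 0.37 and 0.88 (-0.04, -0.13 and 0.01 over all 370). Over all 370, 14.6%, 17% and 14.9% were higher at these times, so the D5 count was no larger a share than the background. The D5 split was 5 higher and 1 lower with limma-voom (median 0.35), and 4 and 3 with limma on quantile-normalized log2 RPM (median 0.19). miR-323-3p (1.48) and miR-376c-3p (1.10) were the highest at PT, and miR-495-3p (-1.29) and miR-376a-3p (-0.74) were the lowest. No member was called at PT with the block for code, sex and time point, beside 15.4% called over all 370.

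Groups of mixed direction at PT were the lymphoid and myeloid list (5 of 14 higher, 5 lower), the platelet and endothelial list (3 of 8 higher, 3 lower), the epithelial list (5 of 19 higher, 4 lower), the stroma and smooth muscle list (6 of 19 higher, 5 lower), and the list of miR-30 and miR-29 (6 of 14 higher, 3 lower). Over all 370, 28.1% were higher and 29.7% lower at PT, which is the background for these counts and for those of the lists that follow. In the lymphoid and myeloid list miR-181a-5p (1.43) and miR-181c-5p (0.86) were higher and miR-142a-3p (-0.89) lower, and the lymphocyte miRNA miR-150-5p did not pass (0.06, SE 0.07). In the epithelial list miR-200a-3p (1.02) and miR-200c-3p (-1.32) went opposite ways, and at D2 and D5 1 and 2 members were higher and 7 and 7 lower (14.6% and 21.6% lower over all 370). The liver list had 1 of 8 higher and 3 lower, with miR-802-5p the sole member called at all 4 time points. In the muscle and heart list 1 of 10 was higher and 4 lower at PT, and the 4 lower were the arms of miR-486a and miR-486b, which the red blood cell list holds too. The neural list had 2 of 8 higher and 1 lower, the gonad list 2 of 6 higher and 1 lower (miR-449a-5p, -1.60), and the Hox clusters 2 of 5 higher (miR-10a-5p, 0.90, and miR-10b-5p, 0.95) and 2 lower. In the Sfmbt2 cluster, a set of repeated miRNAs in an intron of that gene whose near-identical copies share reads, 4 of 11 were lower and none higher, led by miR-467a-5p (-1.50) and miR-669c-5p (-1.18).

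**Figure D5:**
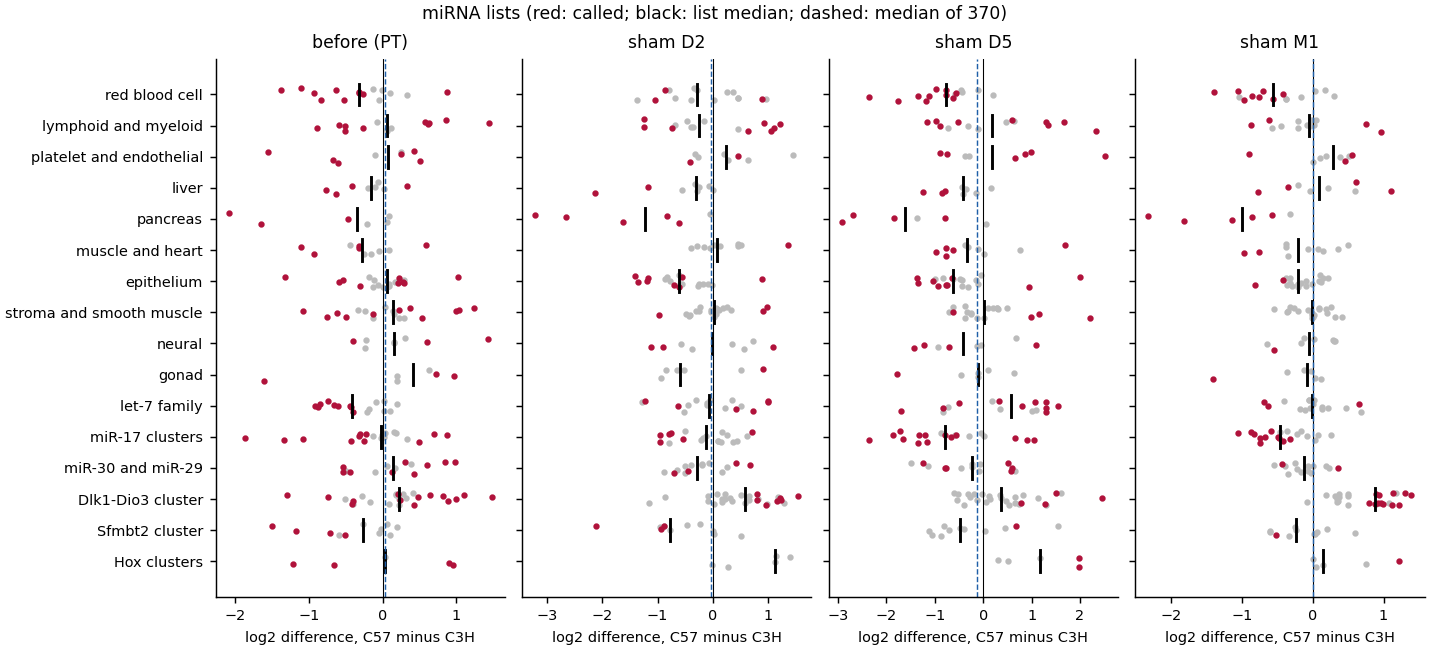
Strain difference (log2, C57Bl/6 minus C3H) of each tested member of 16 miRNA lists at PT and in sham mice at D2, D5 and M1, with called members in red, a black line at the list's median and a dashed line at the median of all 370. Members of the pancreas list lay to the left and those of the Dlk1-Dio3 cluster to the right in the sham samples, and the let-7 list moved from a median of -0.41 at PT to 0.57 at D5.

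Neighbours of the same precursor or cluster did not always move together. Of the 24 miRNAs called throughout, miR-216a-5p with miR-217-5p, miR-144-3p with miR-451a, and miR-19a-3p with miR-20a-5p lay within 10000 bases of each other. miR-19a-3p and miR-20a-5p share their transcript with miR-17-5p, miR-18a-5p, miR-19b-3p and miR-92a-3p. The values of miR-17-5p are given above. miR-18a-5p was lower at PT (-1.34) and M1 (-0.75) and not called at D2 (0.09) or D5 (0.02). miR-19b-3p was not called at PT (-0.02) and was lower at D2, D5 and M1 (-0.75, -1.20 and -0.32). miR-92a-3p was not called at PT (-0.01) or D2 (0.36) and was lower at D5 (-0.57) and M1 (-0.42).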

How the data were processed

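The authors isolated RNA from plasma with a biofluid kit, built libraries with the QIAseq miRNA kit and aligned trimmed reads to mouse miRNA (mm10) with Illumina BaseSpace tools. Hemolysed plasma and shallow runs had been left out. The miRBase release and any use of molecular identifiers are not given in the sources used here. The deposited table holds raw read counts of 1915 miRNAs, 1 column per sample, with no normalization. mm10 is a C57BL/6J genome, and whether C3H alleles change alignment was not tested.

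Counts of the 320 samples without irradiation (192 PT, 128 sham) entered 1 edgeR 4.0.16 fit (R 4.3.3) with TMM scaling and a mean for each of 8 groups (312 residual degrees of freedom). The filter filterByExpr kept 370 miRNAs holding 99.98% of reads. Strain differences were tested with the quasi-likelihood test and Benjamini-Hochberg adjustment over all 370. The study's methods normalized RPM by quantiles before limma-voom, and that normalization was run as an alternative. Library measures were compared with two-sided permutation tests of 100000 resamples. The p-values measure spread between mice. The code block treats samples within each of 32 sets of code, sex and time point as correlated (limma 3.58.1, correlation 0.247), and the sets as independent of each other.

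The miRNAs named in the text are the 12 highest and 12 lowest at PT among those averaging 5 log2 CPM or more, alike in all 4 code and sex comparisons, the 3 highest and 3 lowest called below that level, the 10 most abundant, the leading member of each list, and all called the same way at 4 time points. Members and lists were chosen with earlier results of these data known. Same-numbered samples come from the same mouse: over 192 pairs their deviations from group means correlated at 0.101 on average, against -0.006 between mice of 1 strain, over 161 miRNAs. The 2 strains share no mouse. Sequences and positions are RefSeq's on GRCm38.p6 (316 of 370 names matched), with host genes from GENCODE. The tests were checked on simulated counts of independent samples with strain differences alone. That check does not cover differences between title codes or sexes, or repeated samples of a mouse.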

Additional observations from a re-analysis of the deposited data

Results flagged for a closer look

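The strain difference at PT differed between females and males, which also differed in age, in 69 miRNAs by edgeR's test of the interaction. Given as females minus males on the log2 scale, it was lower in females for miR-18a-5p (-0.64), miR-106b-5p (-0.69), miR-340-5p (-0.76), miR-99a-5p (-0.58), miR-132-3p (-1.0), miR-181a-5p (-0.98), miR-222-3p (-0.52) and miR-451a (-0.98). It was higher in females for miR-342-3p (0.53), miR-126a-3p (0.60) and miR-7a-5p (0.41).

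The strain difference at PT differed between the pairs of title codes in 197 miRNAs by the same kind of test. The values are the difference of G3 against G4 minus that of G1 against G2. Among miRNAs lower in C57Bl/6 they were 1.59 for miR-17-5p, 1.94 for miR-151-5p, 1.15 for miR-18a-5p, 1.85 for miR-200c-3p, 1.24 for miR-669c-5p, 0.87 for miR-106b-5p, 1.18 for miR-140-5p, 1.15 for let-7i-5p, 1.97 for miR-142a-3p and -0.76 for miR-296-5p. Among those higher in C57Bl/6 they were -0.48 for miR-1839-5p, 0.80 for miR-10a-5p, 0.55 for miR-340-5p, 0.74 for miR-10b-5p, -0.86 for miR-200a-3p, 1.13 for miR-99a-5p, 0.59 for miR-322-3p, 1.85 for miR-132-3p, 1.73 for miR-181a-5p and -0.47 for miR-342-3p. Among the other miRNAs called at all 4 time points they were -1.47 for miR-93-5p, 0.46 for let-7d-5p, 0.34 for let-7g-5p, 0.51 for miR-139-5p, 0.70 for miR-184-3p, -0.34 for miR-19a-3p, -0.44 for miR-20a-5p, 0.43 for miR-222-3p, -0.40 for miR-223-5p, -0.66 for miR-301a-3p, -0.46 for miR-378a-5p, 0.66 for miR-431-5p, 1.00 for miR-451a and -0.59 for miR-7a-5p.

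The strain difference in sham mice at M1 differed from that at PT in 110 miRNAs. As M1 minus PT, it moved up for miR-17-5p (1.19), miR-151-5p (1.21), miR-18a-5p (0.59), miR-669c-5p (0.66), miR-140-5p (1.07), let-7i-5p (0.86), miR-296-5p (1.28) and miR-223-5p (0.39). It moved down for miR-1839-5p (-0.93), miR-10a-5p (-0.89), miR-340-5p (-1.07), miR-455-5p (-0.63), miR-10b-5p (-0.91), miR-29a-3p (-0.63), miR-200a-3p (-0.88), miR-99a-5p (-1.30), miR-322-3p (-1.33), miR-132-3p (-1.11), miR-181a-5p (-1.41), miR-20a-5p (-0.57) and miR-451a (-0.89). This test treats the PT and M1 samples of a mouse as independent.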

How the results depend on the processing

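A replicate block for the mouse (limma-voom) gave 218, 128 and 152 calls at PT, D2 and D5. The counts at PT stayed within 1.5 times of 214 under every alternative but 3: 415 with no filter on low counts (M1: 184), 125 with only miRNAs averaging 5 log2 CPM or more, and 57 with title code, sex and time point as a block (D2 63, D5 82, M1 40), which left 6 of 24 called at all 4 time points. The unfiltered fit tested more than 370 miRNAs and the abundant one fewer, so their counts do not compare with 214 as shares. In the main fit 171 of the 370 averaged at least 5 log2 CPM. DESeq2 called 215. limma-voom split the calls 50 higher and 75 lower at D2, and 58 and 95 at D5. The D5 median of all miRNAs was then -0.28 instead of -0.13, and -0.32 with limma on quantile-normalized log2 RPM.

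Direction at PT changed in these cases, with causes not tested. In females alone miR-16-5p was 0.0018, and with the hemolysis covariate 0.047. In males alone miR-126a-3p was -0.019 and miR-125b-5p -0.076, and with only the PT groups fitted miR-125b-5p was -0.000156. With G1 and G2 alone miR-25-3p was 0.31, miR-93-5p 0.58 and miR-20a-5p 0.014. With G3 and G4 alone let-7c-5p was 0.39, miR-125b-5p -0.26, miR-451a 0.069 and miR-101a-3p -0.21. Leaving out a code was chosen after seeing the data. Without G1 miR-125b-5p was -0.087. Without G2 miR-200c-3p was 0.20, miR-16-5p 0.16, miR-486a-5p and miR-486b-5p both 0.073, let-7c-5p 0.63, miR-125b-5p -0.075, miR-451a 0.18 and miR-101a-3p -0.10. Without G3 miR-16-5p was 0.0024 and miR-93-5p 0.0055. Without G4 miR-93-5p was 0.25, miR-184-3p -0.0064, miR-19a-3p 0.015 and miR-20a-5p 0.18. Of all values of the named miRNAs under alternatives, 2355 kept direction and side of the threshold, 125 lost the call, 9 gained it and 27 changed direction. miRNAs near the detection limit, such as miR-217-5p, are limited by depth.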
